A study of Rattus norvegicus with 4 samples.

Results

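The fatty acid binding protein family was followed as 7 genes, Fabp1 to Fabp7, of 26541 genes on the array. The family was chosen on the measured ratios of these arrays, in which Fabp1 and Fabp2 were far lower in the pools of both experimental diets, so the ratios of its members are given as a description with no test. Each gene was read by 1 probe with 1 spot, and all 7 probes were found.

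The animals were male Sprague-Dawley rats, put on their diets at weaning and kept on them for 3 weeks. Iron in the diet was 5 ppm in the iron-deficient (FeD), 35 ppm in the iron-adequate (FeA) and 20275 ppm in the iron-overloaded (FeO) group. The FeA value is that of the sample label, and the content the paper measured is slightly higher. Pancreatic RNA of 6 rats per diet was combined into 1 pool. Each experimental pool was hybridised together with the FeA pool on 2 arrays, with Cy3 and Cy5 exchanged between them, and the 4 arrays lay on 1 slide with 1 scan. There were no replicates of a diet: a pair of arrays repeats the same RNA, its difference is technical, and the animals within a pool cannot be told apart. Both comparisons share the FeA pool.

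Fatty acid binding proteins are small cytosolic carriers that hold long-chain fatty acids and related ligands inside a barrel of beta strands. Each is named for a tissue in which it is abundant: Fabp1 for liver, Fabp2 for small intestine, Fabp3 for heart and muscle, Fabp4 for adipocytes, Fabp5 for epidermis, Fabp6 for ileum and Fabp7 for brain. The pancreas consists mainly of exocrine acinar cells, with ducts, endocrine islets, vessels and some fat.

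The tissue label was checked against marker genes. Of the acinar markers, 15 of the 15 genes on the array passed the filter on background, and their summed processed signal was 8468273 and 11166319 in FeA on the FeD arrays. Of the islet markers, 10 of 10 passed, with sums of 504832 and 448432 in the same channels. The filter asked that a probe be well above background, by the scanner software's own call, in at least 1 of the 2 diets on both arrays of a comparison.

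The upstream sequences of the 2 members with the lowest ratios are shown, as the genes moved together. They are the 250 bases before the start site in RefSeq on build GRCr8, and 5 of the 7 members had an entry. Capitals mark matches, on either strand, to the TATA box TATAAA, to an HNF1 motif, one arm of its palindromic site, spelled GTTAAT, to a GATA motif spelled AGATAA and to AGNNCA repeated after 1 base, a form of the site of HNF4 and of PPAR with RXR.
Fabp1 (chr4:104749090-104749339, + strand): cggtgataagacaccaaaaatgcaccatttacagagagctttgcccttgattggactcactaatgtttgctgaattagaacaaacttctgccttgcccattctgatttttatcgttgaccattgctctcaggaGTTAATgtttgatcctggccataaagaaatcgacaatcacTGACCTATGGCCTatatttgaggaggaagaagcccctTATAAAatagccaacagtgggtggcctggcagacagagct
Fabp2 (chr2:213724379-213724628, + strand): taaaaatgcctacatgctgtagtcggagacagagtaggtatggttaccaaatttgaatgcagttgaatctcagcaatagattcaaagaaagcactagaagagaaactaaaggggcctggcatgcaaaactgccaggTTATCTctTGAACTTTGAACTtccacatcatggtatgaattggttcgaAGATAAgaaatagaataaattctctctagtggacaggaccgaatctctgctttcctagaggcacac
The Fabp1 stretch held the TATA box, the HNF1 motif and the repeat. The Fabp2 stretch held the GATA motif at 2 places and the repeat. Over 33469 promoters of the same length, the TATA box was present in 12.9%, the HNF1 motif in 6.45%, the GATA motif in 10.3% and the repeat in 2.23%. A match describes letters and is not evidence of binding. In the upstream stretches of Fabp3 and Fabp7 none of the 4 motifs was found, and that of Fabp6 held the TATA box alone.

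Of the 7 members, 4 passed the filter in each comparison, namely Fabp1, Fabp2, Fabp4 and Fabp5. Past a mean log2 ratio of 2 in size, with the same sign on both arrays, 2 members were lower in FeD, where 0.0889% of 15755 genes were lower and 0.019% higher. In FeO the same 2 members were lower, where 0.133% of 16487 genes were lower and 0.0607% higher. Past a log2 ratio of 1, Fabp4 was added in FeO, where 0.661% of genes were higher and 0.503% lower. In FeD no member was added, with 0.127% of genes higher and 0.248% lower. The members were chosen on this contrast, so nothing is read from these counts.

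Fabp1, the liver type that is also abundant in enterocytes, gave median spot signals in FeA of 1454 and 2034.5 on the FeD arrays and 1403 and 1971 on the FeO arrays, over local backgrounds of 54.5, 84, 52 and 77. Its signals were 145 and 87 in FeD and 125 and 86 in FeO, over backgrounds of 87.5, 52, 84 and 50. All 4 FeA channels were well above background, while 1 of 2 channels was in FeD and 0 of 2 in FeO. The FeA and diet values did not overlap in any dye. In the paper's follow-up by qRT-PCR, Fabp1, Fabp2 and Apoa1 were too low to be detected in pancreas. The paper reports this as a discrepancy with its arrays, so their lower array signals in FeD and FeO were not borne out by qRT-PCR.

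The log2 ratio of FeD over FeA for Fabp1 was -4.69 and -3.74, with a mean of -4.21. The array pair differed by 0.95, less than the ratio itself. Since FeD was measured on 1 of its 2 arrays, the mean depends on a signal near background. For FeO over FeA the ratios were -4.93 and -4.01, and Fabp1 was at least 21.8-fold lower in FeO under the main setting; with no background subtraction the log2 ratio was -4.16, a smaller difference. Such a bound, which holds for the main setting only, sets the mean log2 level of the bright diet against that of the dim one, in which each array counts as the higher of the lowest signal among probes well above background in that channel and the dim probe's own signal, after loess and Aquantile normalization. In pooled tissue RNA, fewer cells of a type and less RNA per cell cannot be told apart.

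Fabp2, the intestinal type, had median spot signals in FeA of 451.5 and 692 on the FeD arrays and 357 and 538 on the FeO arrays. In FeD they were 128.5 and 77, and in FeO 110 and 67. Fabp2 was well above background in all 4 FeA channels and in none of the 4 channels of the other diets. Its log2 ratios were -3.04 and -2.51 in FeD and -2.88 and -2.51 in FeO. The FeD pool was thus at least 6.77-fold lower. For the FeO pool the bound was at least 6.32-fold. Both bounds hold for the main setting only. With no background subtraction the log2 ratios were -2.55 in FeD and -2.48 in FeO, and with processed signals -5.98 and -6.96.

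**Figure D1:**
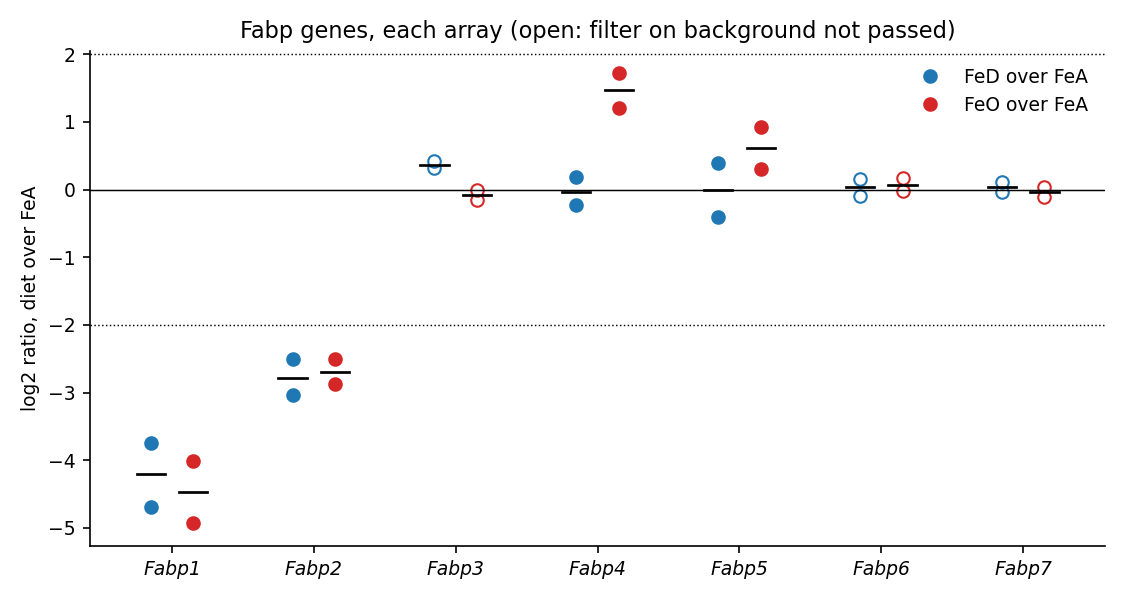
Log2 ratio of diet over FeA for each Fabp gene on each array (points, FeD blue and FeO red, open where the filter was not passed) with the mean of the 2 arrays (bar). Dotted lines mark a log2 ratio of 2 in size, and Fabp1 and Fabp2 lie below -2 on all 4 arrays while Fabp4 lies above 1 on both FeO arrays.

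Fabp4, the adipocyte type, was well above background in all 8 channels. Its log2 ratio in FeD was 0.18 and -0.23, with a mean of -0.03, so the arrays had opposite signs. In FeO it was 1.72 and 1.21, with a mean of 1.47, or 2.76-fold higher. The FeO channels, at log2 levels of 12.41 and 11.82, lay above all 4 FeA channels, which ranged from 10.60 to 10.78.

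Fabp5, the epidermal type, was also well above background in all 8 channels. Its ratio was 0.40 and -0.40 in FeD, and 0.93 and 0.31 in FeO, with means of 0.00 and 0.62. The difference between arrays was 0.80 in FeD and 0.62 in FeO, as large as or larger than the means. The FeO channels, at log2 levels of 11.75 and 11.17, lay above the FeA channels, which ranged from 10.61 to 11.16, the lower FeO value only just. Fabp5 has close pseudogenes in the rat genome, and whether its probe also binds them was not tested.

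The other 3 members did not pass the filter in either comparison. Fabp6, the ileal bile acid binder, and Fabp7, the brain type, were not well above background in any channel. Fabp3, the heart type, was well above background in 1 of 8 channels, that of FeD on the first FeD array. Their ratios are plotted as open points and are not read.

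**Figure D2:**
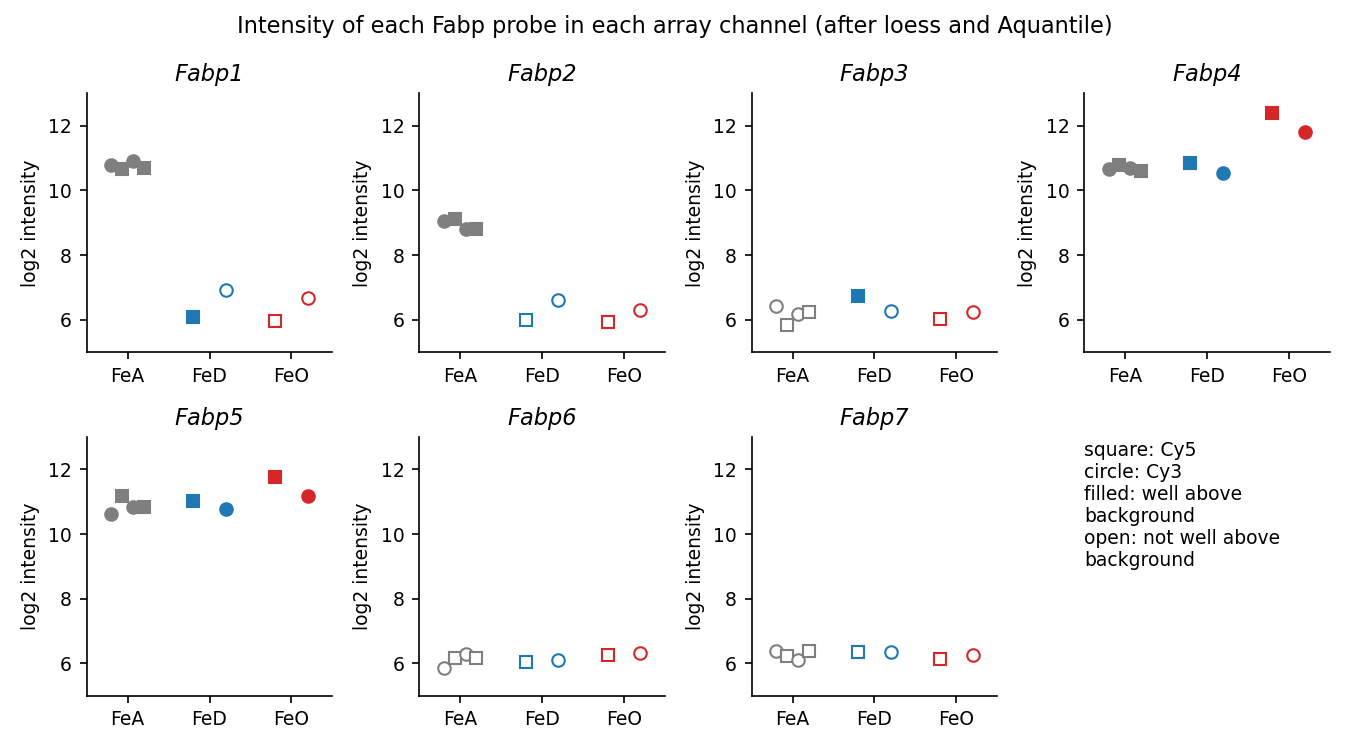
Log2 intensity of each Fabp probe in each of the 8 array channels by diet pool, after loess and Aquantile normalization (square Cy5, circle Cy3, filled when well above background). Fabp1 and Fabp2 are filled in all FeA channels and open in all but 1 of the FeD and FeO channels, while Fabp4 and Fabp5 are filled throughout.

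On build GRCr8 the genes Fabp12, Fabp4, Fabp9, Pmp2 and Fabp5 follow one another on chromosome 2 with no other protein-coding gene between them. Of these neighbours, Fabp9 passed the filter in both comparisons with mean log2 ratios of 0.12 in FeD and 0.02 in FeO, and Pmp2 and Fabp12 did not pass. Of the other intracellular lipid-binding proteins, 8 genes were on the array and 5 passed. Their median log2 ratio was 0.06 in FeD and 0.02 in FeO, against 0.01 for all genes in both, and none passed a log2 ratio of 1. Rbp7, the retinol binder, reached 0.91 in FeO, and Rbp2, the intestinal retinol binder, had -0.17 in FeD and -0.35 in FeO.

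Genes nearest to a member were found over the 4 log2 ratios, by Euclidean distance among 15263 candidate genes. The named genes nearest to Fabp1 were Prap1, Lypd8l2 and S100g, at distances of 0.76, 0.928 and 1.07, and 2 more known by identifiers only stood at 1.19 and 1.5. S100g, an intestinal calcium binder, had ratios of -4.39 and -4.49 in FeD. Nearest to Fabp2 were Tff1, Apoa1, Alpi, Gsta5 and Lypd8l2, at distances of 0.216 to 1.24. Lypd8l2 stands beside both through 2 probes that do not agree, with -4.52 and -2.88 in FeD for the one near Fabp1 and -2.40 and -1.67 for the other. None of the 4 diet channels of Fabp2 and 1 of the 4 of Fabp1 were well above background, so these distances and their order rest on signals near background and are not exact. Nearest to Fabp4 were Aoc3, Agt, Gys2, Wfdc21 and Adrb3, at distances of 0.281 to 0.416. Among the genes nearest to Fabp5 were Rhpn2 and S100a4, at distances of 0.258 and 0.283, and 2 known by identifiers only.

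The list of intestinal epithelial markers held 29 genes, of which 28 were on the array and 20 passed in each comparison. In FeD 19 were below 0, 10 were at or below -1 and 5 passed a log2 ratio of 2 downward, with a median of -0.96 against 0.01 over all genes, of which 47% were below 0 and 38 of 15755 at or below -1. In FeO 19 were below 0, 10 were at or below -1 and 5 passed, with a median of -1.14, while of all genes 46.5% were below 0 and 77 of 16487 at or below -1. Of the 20 genes that passed, 5 in FeD and 6 in FeO had a probe well above background in FeA but in no diet channel. Cdh17 and Treh in FeD, and 1 probe of Lgals4 in FeO, were so in 1 of the 2 diet channels. All of these probes passed the filter through FeA alone. Such probes can hardly come out higher, so nothing is read from these counts against those of all genes. With genes that have only a bound set to it, the medians were -0.94 and -1.08. The size of these medians depends on how background is treated: they were -1.64 and -1.93 with normexp without offset, -2.13 and -2.16 with processed signals and -0.87 and -0.93 with no background subtraction. S100g, Prap1 and Lgals4 had mean ratios of -4.44, -3.89 and -2.18 in FeD and -4.77, -4.45 and -3.59 in FeO. Tff3, a goblet cell peptide, had -2.10 and -2.38. Guca2a had -1.38 and -1.83. Agr2 was not well above background in FeD or FeO, which leaves bounds, at least 3.14-fold lower and 3.24-fold lower. Cdh17, a cadherin of the intestinal epithelium, had -1.61 in FeD, with 1 of the 2 FeD channels well above background. Its bound in FeO was at least 3.54-fold lower. The probes of Alpi, an alkaline phosphatase of enterocytes, did not give the same size: 1 probe had -2.41 and -2.58, and the mean over those that passed was -1.37 in FeD and -1.43 in FeO. S100g, Prap1, Lgals4 and Mep1b are among the genes the study picked from these samples, so their direction is not independent evidence.

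The summed processed signal of the intestinal list was 31529 and 31776 in FeA and 12378 and 14166 in FeD. On the FeO arrays it was 31690 and 38405 in FeA and 10018 and 14803 in FeO. The brightest gene was S100g in FeA and Cdx1 in FeD and FeO. Cdx1 was the 1 gene of the list above 0, with ratios of 0.16 in FeD and 0.13 in FeO. Vil1, Anpep and Lct also changed little, with ratios from -0.21 to -0.03, beside the 10 genes at or below -1 in each comparison. Defining brush border genes not well above background in the filter of either comparison were Si, which encodes sucrase-isomaltase, Mgam, Slc5a1, Slc15a1, Slc2a5, Mep1a and Myo1a. The list shares Rbp2, Cdx1 and Cdx2 with other lists. The part of intestinal markers in the lower Fabp1 and Fabp2 was not tested.

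Of triacylglycerol synthesis and chylomicron assembly genes, 11 of 16 passed in FeD and 10 in FeO. The median was -0.45 in FeD and -0.56 in FeO, against 0.01 over all genes in both. Below 0 were 10 of 11 and 8 of 10, against 47% and 46.5% of all genes. In each comparison 2 of them were well above background in FeA but in no diet channel. Apoa1, Apoc3 and Cideb in FeD, and Apoc3 in FeO, were so in 1 of the 2 diet channels. All of these had passed the filter through FeA alone, so nothing is read from these counts. Apoa1, the main apolipoprotein of high density particles, had a mean ratio of -2.94 in FeD, with 1 of the 2 FeD channels well above background. In FeO its bound was at least 7.95-fold lower. Mogat2, which makes diacylglycerol in enterocytes, had bounds of at least 2.45-fold lower for FeD and 2.34-fold for FeO. Dgat2 was higher in FeO, at 1.60. Apoa1, Mogat2, Mttp, Apoc3 and Npc1l1 of this list were also picked by the study from these samples, and Npc1l1 did not pass.

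Adipocyte markers were compared beside Fabp4. Of 20 genes, 18 were on the array and 18 passed. In FeO 18 of 18 were above 0, 12 were at or above 1 and 3 passed a log2 ratio of 2, with a median of 1.56 against 0.01 for all genes, of which 46.5% were below 0 and 102 of 16487 at or above 1. In FeD the median was -0.08 and 6 of 18 were above 0. Cfd, Car3 and Adipoq, each abundant in fat cells, reached 2.30, 2.14 and 2.07 in FeO, and Cidec and Retn 1.92 and 1.83. The summed processed signal was 30005 and 34973 in FeA and 95361 and 117239 in FeO, with Cfd the brightest gene in each channel. The FeD arrays gave 30747 and 25006 in FeA and 26867 and 23286 in FeD. Adipoq and Cfd were also picked by the study from these samples. The list shares Dgat2, Pparg, Cd36 and Acsl1 with other lists, so their values count in both. Pparg, a nuclear receptor that drives fat cell genes, had a ratio of 1.56 in FeO. The part of these markers in the higher Fabp4 was not tested.

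**Figure D3:**
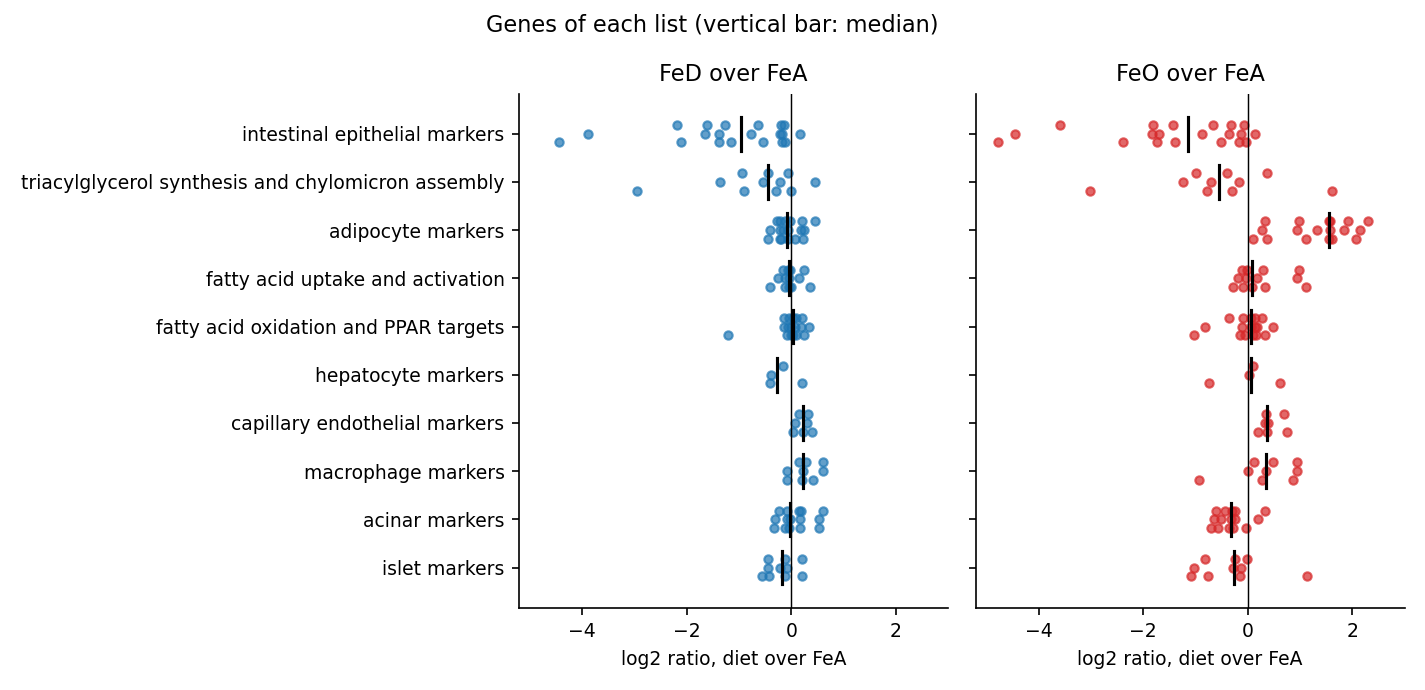
Log2 ratio of diet over FeA for genes of 10 lists that passed the filter (points) with the median of each list (bar), for FeD (left, blue) and FeO (right, red). Intestinal markers lie mostly below 0 in both panels, and adipocyte markers lie above 0 in FeO, with a median of 1.56, and near 0 in FeD.

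Other lists moved less. Fatty acid uptake and activation had 13 of 16 genes passing, with medians of -0.05 in FeD and 0.08 in FeO, and Cd36, a fatty acid transporter, was past 1 in FeO, at 1.15 and 1.06 for its 2 probes. Fatty acid oxidation and PPAR targets had 17 of 19 passing, with medians of 0.03 and 0.07, and Creb3l3, also picked by the study from these samples, had a bound of at least 2.2-fold lower for FeD and a ratio of -1.03 in FeO, with 1 of the 2 FeO channels well above background. Of nuclear receptors and transcription factors 14 of 16 passed, with medians of -0.06 and 0.03. In FeO Pparg was past 1 upward, at 1.56, and Nr0b2, also on the list of ileal bile acid genes, past it downward, at -1.18. The ileal list had 4 genes passing in FeD and 3 in FeO, with medians of -0.26 and -0.51, and Slc10a2 did not pass.

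Hepatocyte markers gave little signal beyond F2, with 4 of 12 passing, and Apoh, Fgb, Fga, Ahsg, Tat, Hpx, Cps1 and Cyp2c11 did not pass. Their medians were -0.26 in FeD and 0.06 in FeO, and the summed signal was 5612 and 5426 in FeA and 4991 and 4380 in FeD. On the FeO arrays it was 5275 and 5861 in FeA and 5707 and 6347 in FeO. Muscle markers had 4 of 10 passing in FeD and 5 in FeO, with Ckm and Acta1 not passing, and medians of -0.14 and -0.09. Glial and Schwann cell markers had medians of 0.01 and -0.02, with S100b, which fat cells also express, at 1.17 in FeO. Capillary endothelial markers had medians of 0.23 and 0.37, with 7 of 7 above 0 in both. Of all genes, 47% and 46.5% were below 0. Macrophage markers had medians of 0.22 and 0.34, with 7 of 9 above 0 in both. In FeO they ran from -0.93 for Marco to 0.95 for Cd163. Acinar and islet markers had medians of -0.02 and -0.17 in FeD and -0.32 and -0.27 in FeO, with Gcg at 1.14, Ppy at -1.08 and Iapp at -1.02 in FeO. With median centring in place of loess the acinar median in FeO was 0.11, with 5 of 15 genes below 0 against 13. Its direction thus depends on the normalization. In FeO the ratios of Cela2a, Cela3b, Cpa1, Prss1, Clps and Gp2 come from a single array, as the other spot was an outlier. Those ratios are not balanced for dye. Each comparison was read on its own, as the FeA pool is shared.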

How the data were processed

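The authors read the 4 arrays with Agilent Feature Extraction 10.1.1.1, and the intensity values they deposited are of 2 kinds. Median signals of spots and of their surroundings carry no correction, whereas for the processed signals the software removed background and spatial trends and balanced the dyes. The log10 values are, per the file headers, the red over green processed signal, not turned for dye. The scanner's 0 or 1 marks per spot were used as deposited. The deposited comparison tables hold the authors' fold changes, p-values, q-values and a keep tag. None of these was used, and only their probe and symbol columns named probes.

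The log ratios come from limma 3.58.1 in R 4.3.3 and were summarised in Python 3.11.15. Median rather than mean spot signals were taken, as decided once the columns had been seen. The normexp method (offset 50) was applied first and loess within arrays second. Control spots and spots marked as outliers by the scanner software (722, 938, 764 and 735 per array) were left out. For probes with several spots, over 50% of them had to be well above background. A gene counted when the mean over both arrays, of any probe, passed a log2 ratio of 2 in size, both arrays having 1 sign, and no probe did so in the opposite direction. Its ratio is the mean over probes that passed the filter. Accessions were named through RefSeq for 59.3% of probes, the deposited symbols for 16.3% and the array for 24.4%. Array design coordinates are on rn4 and none is printed.

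No test of the diets is given as a result, as each is 1 pool; the 2 tests among the alternatives measure technical error only. Named genes are the 7 members, the other lipid-binding proteins, members of each list past a log2 ratio of 1 (at most the 6 most extreme per comparison and direction) with defining genes not well above background, and the 5 genes nearest to each member that passed. Of these nearest genes, 1 is not reported here. The members and lists were chosen with earlier results of these data known. The alternatives tried were normexp without offset, no background subtraction, processed signals, median centring, Aquantile, each array left out, the brightest probe, no filter, both diets above background, a log2 ratio of 1, the methods' t-test and limma.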

Additional observations from a re-analysis of the deposited data

How the results depend on the processing

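Fabp1 and Fabp2 stayed lower in both comparisons under every setting that gave them a value, and without a test 2 members passed the size criterion under each setting except those named here. Requiring both diets well above background left 0 members in each comparison, by construction, and gave these genes no ratio. With normexp without offset Fabp1 had -5.32 in FeD and -5.81 in FeO, Fabp2 -4.10 and -4.40, and 28 genes passed in FeD and 67 in FeO, against 17 and 32. With processed signals the ratios were -6.15 and -6.94 for Fabp1 and -5.98 and -6.96 for Fabp2, with 66 and 146 genes. With no background subtraction they were -3.98 and -4.16 for Fabp1 and -2.55 and -2.48 for Fabp2, and with 1 array left out Fabp1 in FeO was -4.01 or -4.93. The fold bounds therefore hold for the main setting only. The cause was not tested, and these diet channels lay near background. A log2 ratio of 1 gave 59 and 192 genes, and 2 and 3 members. Leaving out an array gave 16 to 17 genes in FeD and 29 to 41 in FeO; without the first FeO array 22 genes were higher and 19 lower, against 10 and 22, so the balance of directions depends on that array. The methods' t-test at its threshold kept 17 and 32 genes and with Benjamini-Hochberg adjustment 0 and 0, with 0 members, while limma after adjustment kept 17 and 32; these compare pools by technical error only, and since the members were chosen on the same ratios, nothing is read from them. No paired analysis was possible because each diet is 1 pool. Fabp4 in FeD changed sign under 1 of 10 settings (-0.23 to 0.18). Intensity near background limits Fabp2 in both comparisons and Fabp1 in FeO to bounds and leaves Fabp1 in FeD resting on 1 array well above background, and 1 pool per diet limits every ratio to these pools.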
